A study of Mus musculus with 6 samples.

Results

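The genes described here are 10 components of fibroblast growth factor (FGF) signalling in the embryonic mouse forebrain: the receptor genes Fgfr1, Fgfr2 and Fgfr3, the Sprouty genes Spry1, Spry2 and Spry4, the phosphatase gene Dusp6 and the ETS transcription factor genes Etv1, Etv4 and Etv5. They were taken by name from a table of 33084 genes, and all 10 were found and passed the filter on low counts, along with 19616 genes in all. The libraries were made from microdissected forebrain of embryos of embryonic day 15.5. Of the 6 libraries, 3 came from wild-type embryos (wt, the controls) and 3 from Dyrk1a<DlxCre/+> embryos (the mutants), in which the kinase gene Dyrk1a is conditionally inactivated in the Dlx5 domain, the territory of developing GABAergic neurons. The label does not state in words whether 1 or both copies of Dyrk1a are removed. Cells of the forebrain outside that domain keep Dyrk1a and are part of every library. Whether litters were shared, and whether the controls carry Cre or the conditional allele, is not in the labels, so p-values measure the spread between these 6 samples.

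FGF ligands bind receptor tyrosine kinases on the cell surface and, through the adaptor FRS2, RAS and a cascade of kinases, switch on the kinase ERK. ERK activity raises transcription of the ETS factors of the PEA3 group (Etv1, Etv4 and Etv5) and of its own inhibitors, among them the Sprouty proteins, which act upstream of ERK, and DUSP6, which removes the activating phosphates from ERK in the cytoplasm. In the developing forebrain this pathway patterns the telencephalon and maintains radial glia, the neural progenitors, and messenger RNA of the feedback genes is widely used as a readout of local FGF and ERK signalling.

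Values are in CPM, reads of a gene per 1000000 reads of its library after TMM scaling, and the libraries held between 24646616 and 38315004 counts. Dyrk1a itself stood at 169, 183 and 180 CPM in the controls and at 185.5, 159 and 182 CPM in the mutants, so the groups overlapped, and a count over the whole gene does not single out the deleted part. The tissue label was checked against 6 forebrain genes, and all 6 passed the filter. They ran from Six3, between 4.375 and 6.53 CPM, to Lhx2, between 79.2 and 134 CPM. Of 8 midbrain and hindbrain genes only Pax5 passed, at 0.633 CPM or less. The replicate 3 libraries of both genotypes stood apart on the first principal component, which held 37.4% of the variance, and Hbb-y, an embryonic globin gene, was at 321 and 322 CPM in them against at most 42.5 CPM in the other 4.

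For none of the 10 genes was a genotype difference larger than the spread of the libraries detected. By edgeR's quasi-likelihood test, adjusted over all tested genes by the Benjamini-Hochberg method, 0 of the 10 passed a threshold of 0.05 (adjusted p = 0.9999 for each), where 0% of all tested genes were called higher and 0% lower. At an unadjusted p under 0.05 there were also 0 of the 10, against 1.92% of all tested genes (376), and the smallest unadjusted p among the 10 was 0.272, for Spry4. DESeq2 and limma-voom with sample weights also called 0 of the 10. Log2 fold changes, mutant over control, ran from -0.18 to 0.10, with 5 above 0, 5 below 0 and a median of 0.02, beside a median of -0.01 and 47.5% above 0 over all tested genes. Without the replicate 3 libraries, which stood apart, the log2 fold changes ran from -0.23 for Spry4 to 0.21 for Etv4, and 0 of the 10 passed (smallest adjusted p = 0.685 by edgeR, for Etv1). That fit gave Fgfr3 0.17 ± 0.11 and Etv1 -0.22 ± 0.13 (SE), beside 0.09 and -0.10 with all libraries. For each of the 10 genes the control and mutant libraries overlapped. Overlap was also the common case over all tested genes, of which 3.19% had all mutants above all controls and 3.70% had them below.

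**Figure D1:**
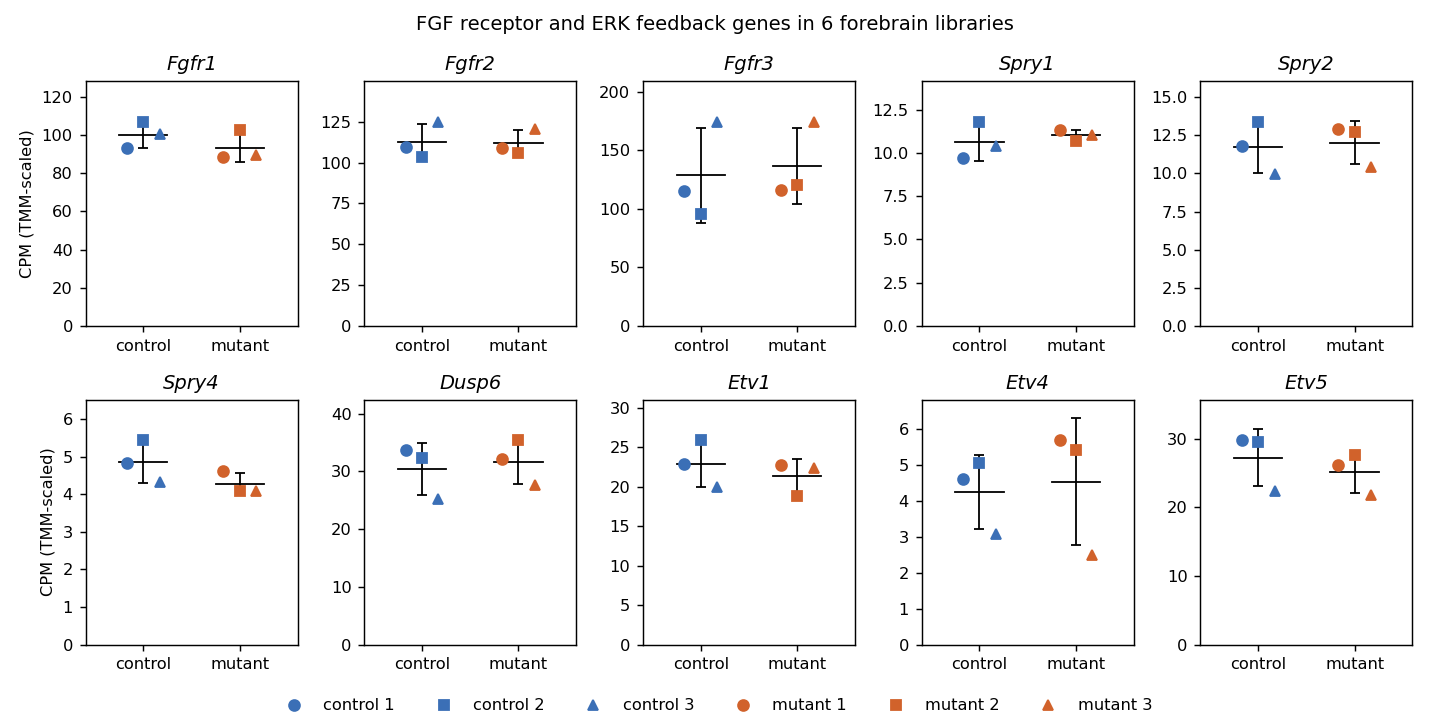
CPM of the 10 genes (vertical axes, linear from 0) in each control and mutant library; symbols mark the replicate number, the horizontal line is the group mean and the bar is 1 SD (n = 3). The groups overlap in every panel, and the replicate 3 libraries (triangles) are the highest of their group for Fgfr3 and Fgfr2. They are the lowest for Etv4, Etv5, Dusp6, Spry2 and Spry4, for Spry4 nearly level with replicate 2 in the mutants.

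The 3 receptor genes encode the tyrosine kinases through which most FGF ligands signal in the brain. Fgfr1 (ENSMUSG00000031565, GRCm38 chromosome 8, 25513654 to 25575718, forward strand) encodes a receptor through which FGF acts on telencephalic progenitors. It was at 93.1, 107 and 100.5 CPM in control replicates 1, 2 and 3 and at 88.5, 102 and 89.3 CPM in the mutants. The 2 lowest libraries were mutants, and mutant replicate 2 lay among the controls. The controls averaged 100.1 ± 6.82 CPM and the mutants 93.35 ± 7.75 CPM (SD, n = 3 each), which is a log2 fold change of -0.10 ± 0.09 (SE), with a 95% interval from -0.32 to 0.11.

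Fgfr2 (ENSMUSG00000030849, chromosome 7, reverse strand), a receptor gene of radial glia and of glial precursors, held 109, 103 and 125 CPM in the controls and 109, 106 and 121 CPM in the mutants. Its groups were nearly superimposed, with the replicate 3 libraries highest in both. The log2 fold change was -0.01 ± 0.10 (SE), and the 95% interval spanned a change from -15.0% to 16.3%. The annotation gives Fgfr2 a span from 130162451 to 133123350, which runs across many neighbouring genes, and 314 bases of its exons are shared with Ctbp2 on the same strand, so a part of its count is uncertain.

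Fgfr3 (ENSMUSG00000054252, chromosome 5, 33721674 to 33737068, forward strand) marks progenitors of the ventricular zone and later astrocytes. It had 115, 95.9 and 174 CPM in the controls and 116, 120 and 174 CPM in the mutants. Replicate 3 of each genotype stood well above every other library, and the remaining 4 libraries lay within 95.9 to 120 CPM. The group means of 129 ± 40.7 and 137 ± 32.4 CPM (SD, n = 3 each) differed by a log2 fold change of 0.09 ± 0.23 (SE), with a 95% interval from -0.43 to 0.61. This interval was the widest of the 3 receptor genes. Fgfr1 and Fgfr3 share exon bases with genes on the opposite strand (Gm16159 and G630022F23Rik, 164 and 998 bases), and the sources used here do not state whether counting used strand.

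The Sprouty genes encode membrane-associated inhibitors that are induced by ERK and dampen receptor tyrosine kinase signalling to RAS. Spry1 (ENSMUSG00000037211, chromosome 3, 37639947 to 37644598, forward strand) had 9.68, 11.8 and 10.4 CPM in the controls and 11.3, 10.7 and 11.03 CPM in the mutants. The mutant values fell inside the range of the controls. Its log2 fold change was 0.05 ± 0.13 (SE), with a 95% interval from -0.23 to 0.34. Spry1 shares 710 exon bases with Gm42922 on the opposite strand.

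Spry2 (ENSMUSG00000022114, chromosome 14, 105891947 to 105896819, reverse strand) was at 11.8, 13.4 and 9.99 CPM in the controls and at 12.9, 12.7 and 10.4 CPM in the mutants. Here the replicate 3 libraries were the 2 lowest of the 6. The log2 fold change was 0.04 ± 0.15 (SE), with a 95% interval from -0.30 to 0.38.

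Spry4 (ENSMUSG00000024427, chromosome 18, 38586247 to 38601415, reverse strand) had the smallest unadjusted p of the set. It was at 4.825, 5.43 and 4.32 CPM in the controls and at 4.605, 4.09 and 4.09 CPM in the mutants, from 104 to 164 counts per library. Mutants 2 and 3 lay below all controls, and mutant 1 lay between control replicates 3 and 1. Means of 4.86 ± 0.56 and 4.26 ± 0.30 CPM (SD, n = 3 each) gave a log2 fold change of -0.18 ± 0.16 (SE), with a 95% interval from -31.2% to 12.7% as a percent change.

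Dusp6 (ENSMUSG00000019960, chromosome 10, 99263231 to 99267489, forward strand) encodes a phosphatase with a strong preference for ERK. It was at 33.7, 32.3 and 25.3 CPM in the controls and at 32.2, 35.4 and 27.6 CPM in the mutants. The lowest library of each genotype was replicate 3, and the other 4 lay between 32.2 and 35.4 CPM. The log2 fold change was 0.06 ± 0.14 (SE), and the 95% interval ran from -16.2% to 29.7%.

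The PEA3-group factors bind DNA through an ETS domain and are transcribed in response to ERK. Etv1 (ENSMUSG00000004151, chromosome 12, 38779380 to 38870484, forward strand), which also marks subsets of cortical projection neurons, had 22.9, 25.9 and 20.0 CPM in the controls and 22.7, 18.8 and 22.3 CPM in the mutants. The lowest library was mutant replicate 2 and the highest control replicate 2. Its log2 fold change was -0.10 ± 0.13 (SE), with a 95% interval from -0.40 to 0.19.

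Etv4 (ENSMUSG00000017724, chromosome 11, 101769742 to 101785371, reverse strand) varied most among the libraries. It held 4.62, 5.07 and 3.08 CPM in the controls and 5.69, 5.43 and 2.51 CPM in the mutants, so the highest 2 and the lowest library were all mutants. The highest library was 2.27 times the lowest, where this ratio was between 1.21 and 1.82 for the other 9 genes. The log2 fold change of 0.10 ± 0.31 (SE) had the widest 95% interval of the set, from -0.61 to 0.82, on 68 to 162 counts per library.

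Etv5 (ENSMUSG00000013089, chromosome 16, 22381309 to 22439719, reverse strand), the PEA3-group gene with the highest level per length here, was at 29.7, 29.5 and 22.4 CPM in the controls and at 26.1, 27.6 and 21.7 CPM in the mutants. Both replicate 3 libraries were below the other 4. The group means of 27.2 ± 4.16 and 25.1 ± 3.05 CPM (SD, n = 3 each) gave a log2 fold change of -0.11 ± 0.14 (SE), with a 95% interval from -0.44 to 0.21.

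**Figure D2:**
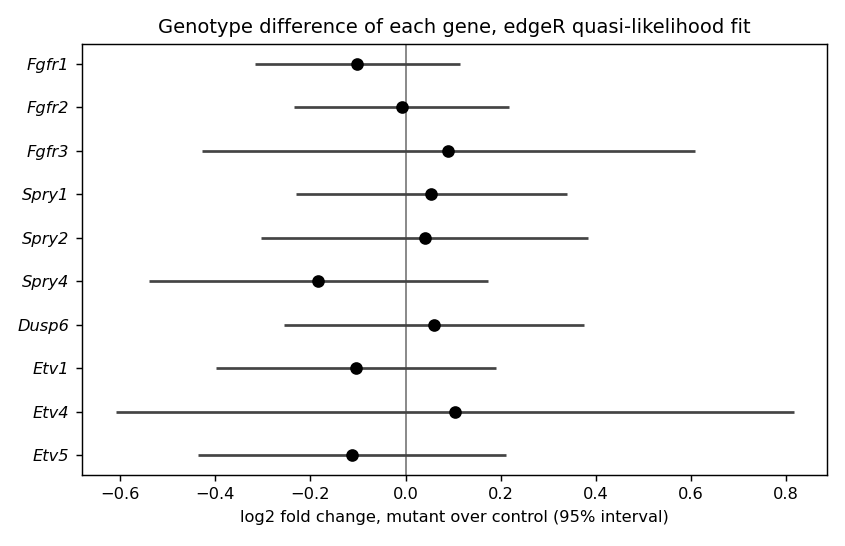
Log2 fold change, mutant over control, of each gene (point) with its 95% interval (line) from edgeR's quasi-likelihood fit of 3 control and 3 mutant libraries. All 10 intervals include 0, and those of Etv4 and Fgfr3 are the widest.

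Levels can be compared between genes only per length, and for this CPM were divided by the length of all annotated exons of a gene in kb. On this scale of CPM per kb of exon, Fgfr3 was highest with a mean of 18.5 over the 6 libraries (range 13.4 to 24.3) and lay above Fgfr2 in all 6. Fgfr2 at 10.9, Dusp6 at 9.93 and Fgfr1 at 9.80 followed, with overlapping ranges, so their order was not resolved. Etv5 at 6.38 lay above Spry2 at 5.69 in each of the 6 libraries, although their ranges over libraries overlapped. Spry1 at 3.72 was separated from Spry2 above it and from Etv1 below it. Etv1 at 1.66, Etv4 at 1.42 and Spry4 at 0.959 formed the low end, where the ranges of neighbours overlapped.

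Summed over the 3 receptor genes, the level was between 34.2 and 46.6 CPM per kb in the 6 libraries, and over the 3 Sprouty genes between 9.28 and 11.6. Fgfr3 was at or above 86.6% of all tested genes by this measure, Dusp6 at or above 71.7% and Spry4 at or above 22.1%. With the longest transcript in place of all exons, values of the genes with many alternative exons rose by over 1.5 times: Fgfr3 to 31.3, Fgfr2 to 25.3, Fgfr1 to 19.2 and Etv1 to 3.36 CPM per kb. Fgfr1 then stood above Dusp6, at 11.1, and the ranges of Fgfr3 (22.6 to 41.0) and Fgfr2 (23.3 to 28.2) overlapped. So did those of Spry1 (3.49 to 4.25) and Etv1 (2.86 to 3.93), while Etv1 was then separated from Etv4 (1.05 to 2.38). The order of these neighbours therefore depends on the length used.

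**Figure D3:**
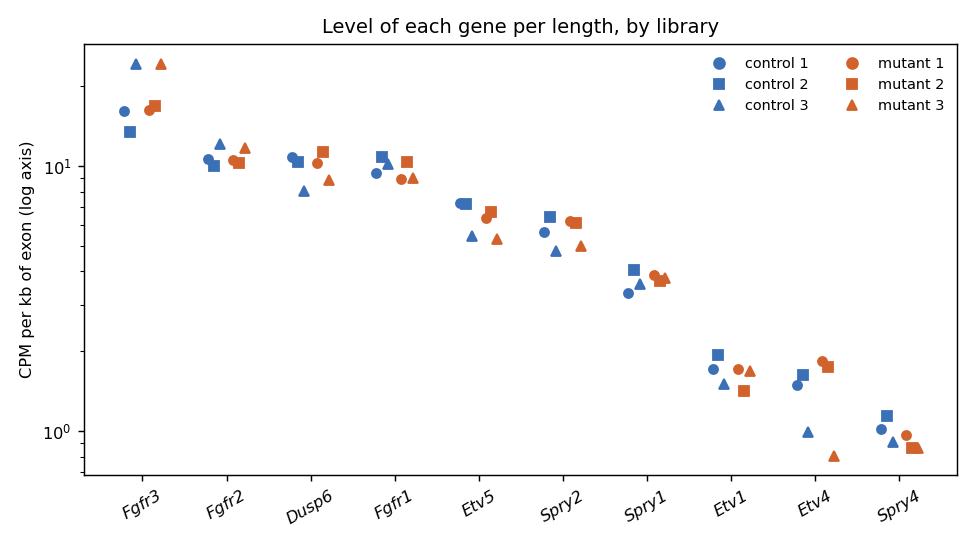
CPM per kb of annotated exon (vertical log axis) of the 10 genes, ordered by their mean over the 6 libraries; colours mark genotype and symbols the replicate number. Fgfr3 is highest in every library, and the points of Fgfr2, Dusp6 and Fgfr1 overlap around means of 10.9, 9.93 and 9.80.

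The replicate 3 libraries were then set against replicates 1 and 2 of their own genotype, gene by gene. This contrast was chosen after seeing the data, so its values are a description with no test, and the labels give no reason to treat replicate 3 as a batch. Fgfr3 was higher in replicate 3 by 0.73 log2 units in the controls and 0.56 in the mutants, and Fgfr2 by 0.23 and 0.17. Fgfr1 was near 0 in both (0.01 and -0.09). Among the feedback genes, Etv4 stood at -0.64 in the controls, where Fgfr3 differed by more, and at -1.13 in the mutants, the largest difference of the 10 genes there.

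Etv5 stood at -0.40 and -0.30, Dusp6 at -0.38 and -0.29 and Spry2 at -0.33 and -0.30, in controls and mutants in that order. Spry4 was lower by less (-0.24 and -0.08), Spry1 was near 0 (-0.04 and 0.0021), and Etv1 differed in sign between genotypes (-0.28 and 0.11). In all, 5 of the 10 genes were lower and 2 higher in replicate 3 of both genotypes. Over all tested genes, 31.1% were lower and 32.6% higher in both.

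Cell type markers differed along the same libraries. All 12 of 12 genes of proliferating cells were higher in replicate 3 of both genotypes, and their summed level ranged from 1106 to 1901 CPM in the controls and from 1199 to 1996 CPM in the mutants, highest in replicate 3 of each. Of 15 radial glia genes, 9 were higher and 6 lower in both. Their summed level ran from 2247 to 2313 CPM in the controls and from 2317 to 2378 CPM in the mutants, with a median log2 fold change of 0.06. These sums did not overlap, by a narrow margin (2313 against 2317 CPM), and the sums of no other list were separated. Of the 15 genes taken singly, 1 had all mutants above all controls, beside 3.19% of all tested genes. Sox2, a transcription factor gene of neural progenitors that is named here after its values were seen, had 58.9, 71.1 and 66.1 CPM in the controls and 76.6, 72.4 and 109.6 CPM in the mutants. Its log2 fold change was 0.40 ± 0.16 (SE, unadjusted p = 0.0329, adjusted p = 0.9999 by edgeR's quasi-likelihood test), and it was the one gene under 0.05 unadjusted among the pathway and marker lists. Of 10 genes of differentiated neurons, 9 were lower in replicate 3 of both, and the summed level ran from 5294 to 6295 CPM in the controls and from 5374 to 6244 CPM in the mutants. Oligodendrocyte precursor genes were lower in 5 of 6, with sums from 81.75 to 113 CPM in controls and from 80.3 to 118.5 CPM in mutants. The sums of 10 GABAergic neuron genes, the cell type of the Dlx5 domain, lay between 420 and 512 CPM in controls and between 490 and 499.5 CPM in mutants, with 10 of 10 log2 fold changes above 0, 0 past the threshold and a median of 0.07. The lowest sum was that of control replicate 1, and without this library the median was -0.0084. Over the lists of proliferating cells, radial glia, neurons and oligodendrocyte precursors the lowest marker was Sox10, at 0.474 CPM or more, so none was at 0. Their part in the levels of the FGF genes was not tested. In whole tissue, fewer cells of a type and less RNA per cell cannot be told apart.

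**Figure D4:**
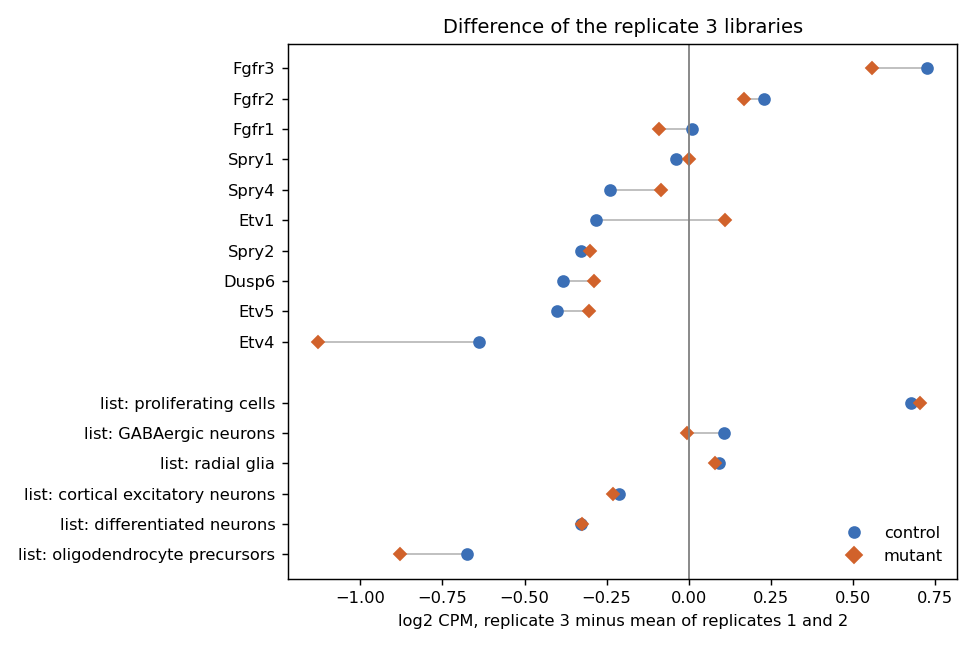
Log2 CPM of replicate 3 minus the mean of replicates 1 and 2 (horizontal axis), in controls (circles) and mutants (diamonds), for the 10 genes (upper rows) and the mean of 6 marker lists (lower rows). Fgfr3 lies at 0.73 in controls and 0.56 in mutants, and the list of proliferating cells at 0.68 and 0.71. Etv4, Etv5, Dusp6, Spry2 and Spry4 lie below 0 in both genotypes.

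Among members averaging 5 CPM or more, Fgfr3 had the largest standard deviation over the 6 libraries, at 0.35 log2 units. The genes most like it were sought by the root mean square distance between log2 CPM values, each centred on the gene's own mean over the 6 libraries. Among 12792 genes averaging 5 CPM or more, the nearest were Cdk1, the kinase that drives entry into mitosis, at a distance of 0.03 log2 units, Kpna2, a nuclear import factor, at 0.04, and Mcm5, a subunit of the replicative helicase, at 0.04. The median distance was 0.33. Cdk1 stood at 55.0, 45.4 and 83.1 CPM in the controls and at 53.4, 54.8 and 80.35 CPM in the mutants, high in replicate 3 as Fgfr3 was. The points of this measure are 6 libraries of which 2 stand apart, so it describes those libraries.

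By the same distance, Dusp6 and Spry2 were each other's nearest member (0.09 log2 units), Etv5 was nearest to Dusp6 (0.09) and Spry4 and Etv1 were nearest to each other (0.08). Fgfr3 was nearest to Fgfr2 (0.23) and farthest from Etv4 (0.73). Etv4 was also the farthest member from Fgfr1, Fgfr2, Spry1 and Etv1. A small distance can also follow from a small spread of both genes. The SD of log2 CPM over the libraries was 0.18 for Dusp6, 0.17 for Spry2 and 0.19 for Etv5, and 0.16 for both Spry4 and Etv1. These values rank pairs of the 10 genes, and shared variation was not tested.

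Promoter windows from RefSeq (GRCm38.p6), reaching from 250 bases before to 50 bases after a start site, were held for 7 of the 10 genes in 10 windows and not for Fgfr1, Spry4 and Etv4. They were searched on both strands for the octamers of Capicua, the repressor of PEA3-group genes that ERK inactivates (TGAATGAA and TGAATGGA), and for a pair of ETS octamers (CCGGAAGT and CAGGAAGT). The Capicua octamers occurred in 0 of the 10 windows and in 2.47% of all 32851 windows, and the ETS octamers in 0 of the 10 and in 7.07% of all. This says only that these letters are not in these windows.

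The rest of the pathway was described through 6 lists with 84 genes, of which 74 were tested. None of the 74 passed the threshold (edgeR's quasi-likelihood test), 0 had an unadjusted p under 0.05, 36 lay above 0 and 38 below, and the median log2 fold change was -0.0017. All mutants lay above all controls for 3 of the 74 (4.05%, beside 3.19% of all tested genes), Map2k1, Phlda1 and Ier2, and below them for 5 (6.76%, beside 3.70%), Ptpn11, Rps6ka2, Elk3, Elk4 and Etv3. Ier2, Ptpn11, Rps6ka2, Elk3 and Elk4 are named here after their values were seen.

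FGF ligands had low counts in these libraries, between 25.01 and 31.5 CPM summed over those tested. Of 15 listed, 9 were tested, 5 above 0 and 4 below, with a median of 0.02, and Fgf1, Fgf8, Fgf16, Fgf20 and Fgf22 did not pass the filter. Fgf15, a ligand gene of neural progenitors, was the most abundant per length and had 10.8, 10.3 and 16.8 CPM in the controls and 11.6, 11.3 and 16.7 CPM in the mutants, again highest in replicate 3. Its log2 fold change was 0.06 ± 0.23 (SE). Fgf9 averaged 5.99 ± 0.17 and 5.43 ± 0.81 CPM in the same order (SD, n = 3 each), with a log2 fold change of -0.14 ± 0.16 (SE). Fgf18, a ligand gene of cortical neurons, was at 0.960 ± 0.33 and 0.712 ± 0.24 CPM, or -0.41 ± 0.35 (SE), and the sparse ligand Fgf7 had 0.11 ± 0.28.

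The FGF homologous factors are not secreted and bind voltage-gated sodium channels inside neurons. Of the 4 tested, 1 lay above 0 and 3 below, with a median of -0.08. Fgf14, Fgf13 and Fgf12 had -0.09 ± 0.13, -0.06 ± 0.14 and -0.14 ± 0.29 (log2, SE). All of these 3 were lower in replicate 3 of both genotypes, with Fgf12 at -0.83 and -0.84 log2 units relative to replicates 1 and 2.

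Of the other receptors and co-receptors, including FLRT proteins and the enzymes and core proteins of heparan sulfate, 11 were tested, 5 above 0 and 6 below, with a median of -0.01. Gpc1, a heparan sulfate proteoglycan gene, averaged 249 ± 38.35 CPM over the controls and 264 ± 20.4 CPM over the mutants (SD, n = 3 each), with a log2 fold change of 0.09 ± 0.12 (SE). Ndst1 and Hs6st1, which sulfate heparan chains, had -0.05 ± 0.08 and 0.08 ± 0.09, and Flrt1 had -0.09 ± 0.11. Fgfr4, the fourth receptor gene, was at 0.729 ± 0.37 and 0.556 ± 0.23 CPM (SD, n = 3 each), with -0.34 ± 0.46 (SE).

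The 26 tested genes of the cascade from FRS2 to ERK and its RSK substrates had 9 above 0 and 17 below, a median of -0.03 and a range from -0.15 to 0.17. Of the MEK genes, whose products activate ERK, Map2k1 was at 33.8, 32.8 and 32.9 CPM in the controls and at 35.2, 36.0 and 37.1 CPM in the mutants, so every mutant lay above every control, with a log2 fold change of 0.12 ± 0.08 (SE). Map2k2 was at 83.5 ± 8.87 and 94.0 ± 6.21 CPM (SD, n = 3 each), or 0.17 ± 0.10 (SE). Cbl, a ubiquitin ligase gene for activated receptors, had -0.13 ± 0.08, and the abundant gene Plcg1 had -0.02 ± 0.09. None of these passed (unadjusted p = 0.132 or more by edgeR, adjusted p = 0.9999).

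Other ERK feedback inhibitors had 7 of 11 tested genes above 0 and 4 below, with a median of 0.05. Dusp4, which encodes a nuclear phosphatase of ERK, was the most abundant per length, at 49.7 CPM per kb. It had 120, 125 and 141 CPM in the controls and 139, 137 and 155 CPM in the mutants, where control replicate 3 lay above mutants 1 and 2. The log2 fold change was 0.16 ± 0.10 (SE). Lrig3, a leucine-rich repeat transmembrane protein gene, was at 6.82 ± 0.93 and 8.33 ± 0.87 CPM (SD, n = 3 each), or 0.29 ± 0.16 (SE, unadjusted p = 0.0994 by edgeR). Dusp5 and Spred1 had 0.27 ± 0.24 and -0.07 ± 0.16.

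Transcription factors and targets downstream of ERK had 9 of 13 tested genes above 0 and 4 below, with a median of 0.04. Phlda1, a gene induced by ERK, had 1.498, 1.905 and 1.95 CPM in the controls and 2.07, 2.56 and 2.32 CPM in the mutants, without overlap, at 0.38 ± 0.20 (log2, SE, unadjusted p = 0.0914 by edgeR). Etv3, an ETS repressor gene, averaged 43.55 ± 1.15 CPM over the controls and 39.4 ± 1.075 CPM over the mutants (SD, n = 3 each), also without overlap, at -0.15 ± 0.08 (SE). Fos had 0.49 ± 0.28, at 1.02 CPM or less in each library. Ccnd1, the cyclin D1 gene, and Cic, which encodes Capicua, had 0.06 ± 0.20 and 0.08 ± 0.12. The adjusted p was 0.9999 for each (edgeR's quasi-likelihood test).

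**Figure D5:**
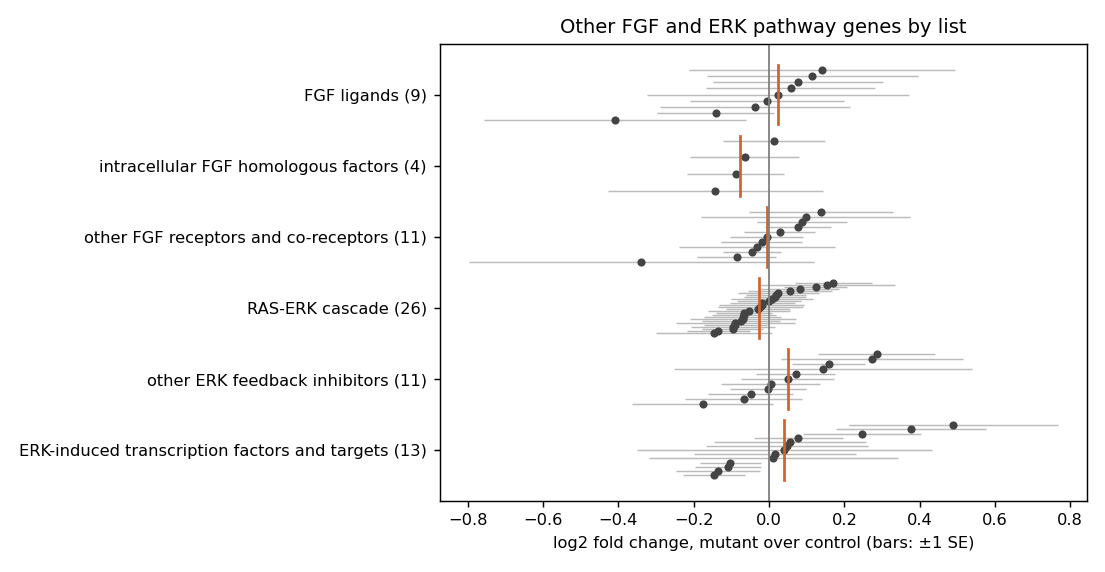
Log2 fold change, mutant over control (horizontal axis), of the tested genes of 6 pathway lists (points, with bars of 1 SE), sorted within each list; the vertical orange line is the list's median and the number of genes is in parentheses. The medians lie between -0.08 and 0.05.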

How the data were processed

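The deposited file holds raw read counts per gene, with no normalization, for 3 control and 3 mutant libraries; no column belonged to other samples. Per the labels' protocols the authors made stranded, ribosomal RNA-depleted single-end libraries, although the labels also name polyA RNA. Per the submitters' processing notes the tools were HISAT2, SAMtools 1.9 and HTSeq 0.9.1. The design text names GRCm38 release 93 and, for the authors' own differential expression, FCROS. The sources used here do not state the strand setting. Symbols (32888 identifiers), coordinates, exon lengths and GC content came from GENCODE M21 on GRCm38.

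Counts were filtered with filterByExpr (count minimum 10, total minimum 15), scaled by TMM and tested with edgeR 4.0.16 (quasi-likelihood, robust, no covariate, Benjamini-Hochberg over 19616 genes, threshold 0.05) in R 4.3.3. Intervals used each gene's fitted degrees of freedom (median 8.8), and log2 CPM a prior count of 2. The fit was also run on simulated counts, drawn independently for each gene and library and so without the shared replicate 3 difference. That run does not show how the fit performs on these libraries. Limma 3.58.1 and DESeq2 1.42.0 gave alternatives, and matplotlib 3.10.9 the figures.

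The 10 genes and the lists were chosen with earlier results of these data known. Named pathway genes are the 3 of smallest p and the 2 most abundant per length in each list. Some genes under this rule are not reported here. Lists got no set test. Alternatives were other size factors and tools, no filter, a replicate block, replicates 1 and 2 only, GC and length correction, longest transcripts and leaving out each library.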

Additional observations from a re-analysis of the deposited data

How the results depend on the processing

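In 13 alternative fits, 0 of the 10 genes passed the threshold in each (130 values, smallest adjusted p = 0.623), and 20 values had the opposite sign. With GC and length trends removed, Fgfr2 was at 0.0048, Spry1 at -0.0093 and Etv4 at -0.010. With sample weights in limma-voom, Fgfr2 was at 0.0056 and Dusp6 at -0.017, and with replicates 1 and 2 only Fgfr2 was at 0.019. Leaving out 1 library gave -0.066 to 0.081 for Fgfr2, -0.12 to 0.38 for Fgfr3, -0.0095 to 0.13 for Spry1, -0.055 to 0.14 for Spry2, -0.050 to 0.15 for Dusp6 and -0.089 to 0.40 for Etv4. The cause was not tested. Fgfr1, Spry4, Etv1 and Etv5 were below 0 in all 13 but moved by over 1.5 times: Fgfr1 from -0.17 to -0.053, Spry4 from -0.25 to -0.10, Etv1 from -0.22 to -0.0014 (GC and length trends removed) and Etv5 from -0.23 to -0.014 (without mutant replicate 3).

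Over all genes, the count at an unadjusted p under 0.05 went from 376 to 587 with no filter, 765 with the replicate block, 1544 with replicates 1 and 2 only and 1909 with sample weights. Leaving out 1 library gave from 179 (control 1) to 1060 (control 3), with 245 for mutant 2 and 689 for mutant 3. Only replicates 1 and 2 alone gave calls, 3 genes outside the set (Hist1h2ag, Pisd-ps1 and Tmem181b-ps). Whether the replicate numbers pair the samples was not settled. To look at this, the mean of each genotype was subtracted from the log2 CPM of each gene. What remained was correlated across genes between each control and each mutant library. By this measure, same-numbered libraries correlated at 0.241, 0.0711 and 0.355. Mutant replicates 2 and 3 correlated best with the control of their own number, but mutant replicate 1 did so with control replicate 2 (0.348). With the replicate block the SE of Fgfr3 was 0.087, beside 0.23 in the main fit. Of 260 list medians, 20 moved by more than 1 SD of the controls. Among them were medians of the FGF ligands, from -0.067 to 0.072 beside 0.024 in the main fit. Medians of the cascade from FRS2 to ERK were also among them, from -0.052 to -0.010 beside -0.027. At 68 to 164 counts, Etv4 and Spry4 were the least precisely counted.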
